A study of Rattus norvegicus with 12 samples.

Results

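Srebf1, Srebf2, Scap, Insig1, Insig2, Mylip and Stard4 are 7 genes of the control of sterol regulatory element binding proteins (SREBPs) and of lipoprotein uptake. They were taken by name, with earlier results of these data known, from the 16558 genes of the count tables, and all 7 passed the filter on low counts that left 12355 genes for testing. Liver RNA of Sprague Dawley rats, an outbred laboratory stock, was sequenced in 12 libraries, 3 in each of 4 groups. The normal group, called wild type in the sample titles, was given saline. Rats of the model group ate a high-fat diet, given over 8 weeks, to bring about non-alcoholic fatty liver disease. The other 6 libraries came from rats with the same induced disease that were treated with didymin, a flavonoid glycoside of citrus, at a low or a high dose. Their count columns carry the letters D and G, and no label says which letter is which dose. The names arm D and arm G are used for them. Model, arm D and arm G are therefore taken to share the high-fat diet, although the labels give its length for the model only. The labels give no sex or age of the rats. They name no animal for a library either, so a p-value here reflects only how much the libraries vary.

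SREBPs are transcription factors made as inactive proteins in the membrane of the endoplasmic reticulum. When sterol in that membrane is low, Scap escorts them to the Golgi, where proteases release the part that enters the nucleus. When sterol is plentiful, Insig proteins hold Scap back. In liver, SREBP-2 mainly drives cholesterol synthesis and lipoprotein uptake, while SREBP-1c drives fatty acid synthesis and is itself induced by insulin and by the liver X receptors. Processing of the SREBP proteins was not measured here, and RNA counts do not report it.

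Total counts ran from 12469914 to 15521648 per library, and values below are CPM, counts scaled to a common library size, after TMM scaling, which evens out differences in composition between libraries. CPM does not allow for gene length, so levels are compared between libraries and not between genes. The 13 mitochondrially coded genes took 61.0% of the counts in the arm G library G.3 and 44.1% in the model library M.6, against 3.85% to 18.8% in the other 10. The 10 hepatocyte markers were all among the tested genes. Their summed level was 167300 to 206500 CPM in normal and 47850 to 173900 CPM in the 9 high-fat libraries, lowest in G.3 and M.6, and 10 of 10 had a negative log2 fold change against normal (median −0.44). The 7 tested T and NK cell markers summed to 6.13 to 11.3 CPM in normal libraries and 6.94 to 32.7 CPM in high-fat libraries. The part of these differences in the results was not tested. In bulk liver, fewer cells of a type and less RNA per cell cannot be told apart.

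Promoter sequences are shown for Srebf2, Insig1 and Srebf1, the genes whose levels on the high-fat diet are described first, and each is known to be a target of SREBPs. Windows came from RefSeq on build GRCr8 and matched 6 of the 7 genes. Each runs 5′ to 3′ over the 250 bases before the start. Capitals mark matches on either strand to the NF-Y box CCAAT, which reads ATTGG on the other strand, the E-box CACGTG, and the short sterol element TCACCCCA. The windows are chr7:115543057-115543306 on the plus strand for Srebf2, chr4:8057770-8058019 on the minus strand for Insig1, and chr10:45519011-45519260 on the minus strand for the downstream of the 2 Srebf1 starts.
Srebf2: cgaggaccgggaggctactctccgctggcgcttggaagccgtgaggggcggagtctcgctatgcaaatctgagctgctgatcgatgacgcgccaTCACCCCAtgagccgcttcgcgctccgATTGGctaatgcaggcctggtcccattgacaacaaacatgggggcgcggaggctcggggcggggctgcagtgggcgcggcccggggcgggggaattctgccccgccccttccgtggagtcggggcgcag
Insig1: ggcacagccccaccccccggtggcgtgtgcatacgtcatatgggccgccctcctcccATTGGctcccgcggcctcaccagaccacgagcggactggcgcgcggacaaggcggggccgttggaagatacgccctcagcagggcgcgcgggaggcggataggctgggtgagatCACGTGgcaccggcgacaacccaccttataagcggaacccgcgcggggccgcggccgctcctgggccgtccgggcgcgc
Srebf1: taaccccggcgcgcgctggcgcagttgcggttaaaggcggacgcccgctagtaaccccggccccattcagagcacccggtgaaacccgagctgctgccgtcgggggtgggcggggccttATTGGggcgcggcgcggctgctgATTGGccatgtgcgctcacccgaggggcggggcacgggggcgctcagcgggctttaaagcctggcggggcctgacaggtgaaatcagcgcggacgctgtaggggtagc

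In the Srebf2 window TCACCCCA began 156 bases before the start, with 19 bases between it and the NF-Y box. Autoregulation of Srebf2 through a sterol element next to an NF-Y box is known from human cells. TCACCCCA was chosen after the windows had been read, and 1.14% of all 33469 windows of this length hold it. The 9-letter core TCACNCCAC was in none of the members' windows and in 0.974% of all windows. An NF-Y box was in 6 of the 7 member windows (Srebf1 has 2), against 11385 of all windows. The E-box was in Insig1, 79 bases before the start, and in Scap, against 5.59% of all windows. These are matches of letters, and no binding was measured.

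**Figure D1:**
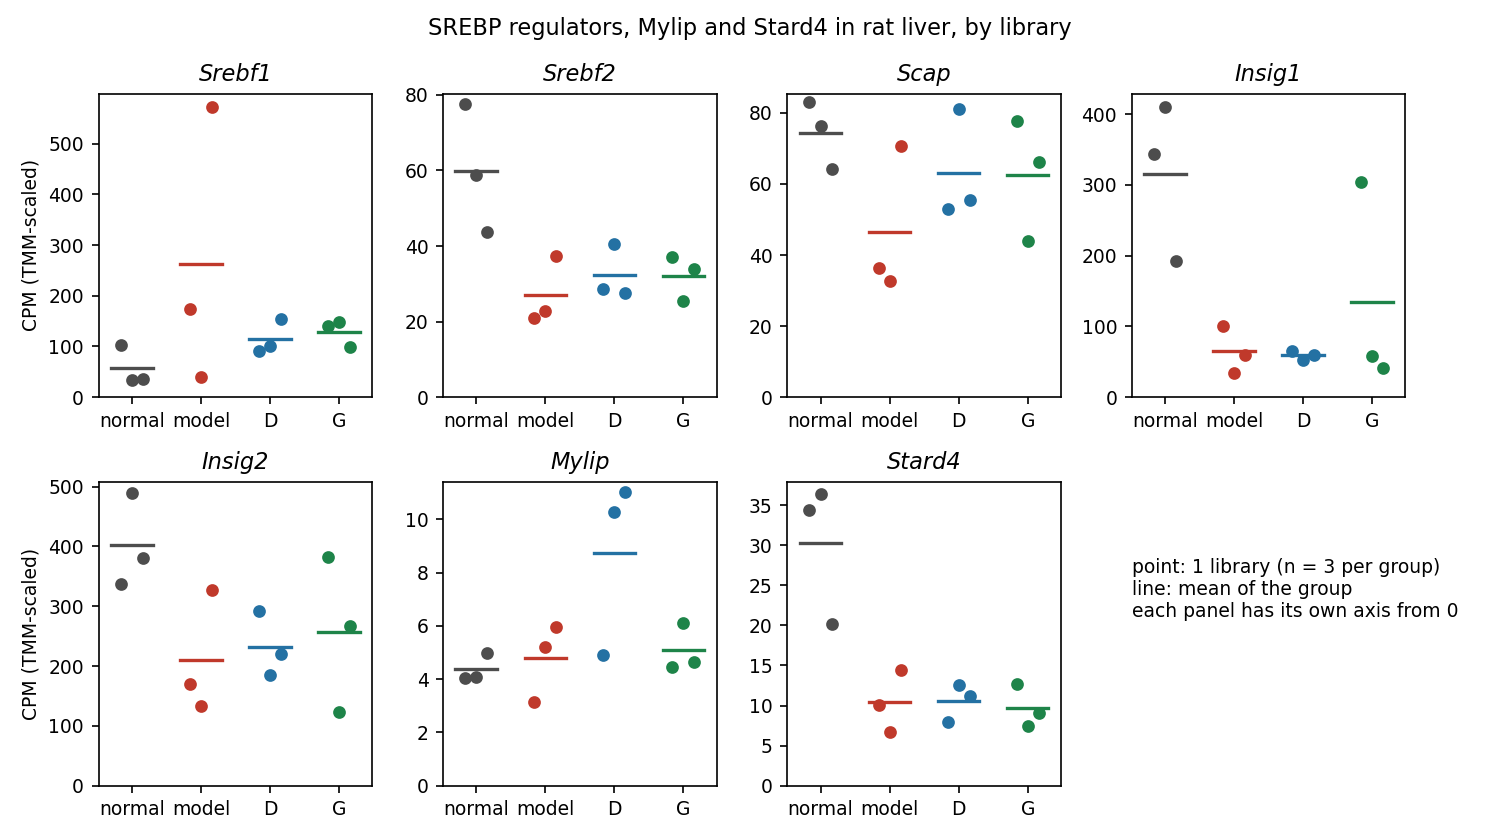
CPM (TMM-scaled, linear axis from 0) of the 7 genes in each of the 12 libraries, grouped as normal, model, arm D (D) and arm G (G); points are libraries and lines are means of 3. Stard4 and Srebf2 have every high-fat library below every normal one, while a single model library (M2.1, 572 CPM) sets the model mean of Srebf1.

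The first question was how these genes differed between the high-fat groups and the normal group. Arm D and arm G also received didymin, so this comparison cannot separate the diet from didymin. The model against normal, described further below, involves no didymin. Taking all 9 high-fat libraries against the 3 normal ones, Stard4, Srebf2, Insig1 and Insig2 were lower, Srebf1 was higher, and Scap and Mylip lay within the spread. The largest negative differences were those of the sterol carrier Stard4 and the sterol sensor Insig1. None of the 7 passed an adjusted p of 0.05 over all genes in edgeR's quasi-likelihood test, and Stard4 missed it narrowly. The 4 lower genes are among the 353 genes with an unadjusted p under 0.05 and a negative fold change, which are 2.86% of those tested, and Srebf1 is among the 3.67% on the positive side. Of all tested genes 0.963% had every high-fat library below every normal one, and Srebf2 and Stard4 were among these. On the other side 0.809% of genes had every high-fat library above, and no member did.

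Srebf2 encodes SREBP-2, the main activator of cholesterol synthesis. Its level was 77.5, 58.8 and 43.6 CPM among normal libraries, which are N.1, N.2 and N.3. It was 21.1 CPM in M.5, 22.8 CPM in M.6 and 37.4 CPM in M2.1, which make up the model. It was 28.5, 40.6 and 27.6 CPM in D.1, D.4 and D.7, and 37.0, 25.5 and 34.02 CPM in G.1, G.3 and G.4. All 9 high-fat libraries were below N.3, the lowest normal library, and the 3 high-fat groups overlapped. The log2 fold change of the high-fat groups against normal was −0.98 ± 0.23 (SE), with an adjusted p of 0.296 in edgeR. An exact permutation test of the library means (two-sided, 9 against 3, 220 arrangements) gave p = 0.00455, the smallest it can give. Scaled to the nuclear-coded total instead, D.4 at 49.9 lay above N.3 at 47.6 in CPM, so the 2 sides then touched. That scaling moved the median of all genes in this comparison to 0.23 from 0.02 on the log2 scale, and Srebf2 to −0.79.

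Srebf1 encodes SREBP-1a and SREBP-1c from different starts, which gene counts cannot separate. It was at 102, 34.1 and 35.4 CPM in N.1, N.2 and N.3. The model libraries were far apart, at 174 CPM in M.5, 39.9 CPM in M.6 and 572 CPM in M2.1. Arm D had 92.0, 100.5 and 153 CPM and arm G had 140.4, 149 and 98.0 CPM, in the order of libraries above. M.6 was near the lower normal libraries, and D.1, D.4 and G.4 were below N.1, so the sides overlapped. The difference between high-fat groups and normal was 1.46 ± 0.63 in log2 with an adjusted p of 0.754 in edgeR. The exact permutation test gave p = 0.0636. For the model alone it was 2.20 ± 0.74, and 0.90 without M2.1. The order of group means was normal, arm D, arm G and model, and no neighbours in it differed beyond their spread.

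The fold changes of the 2 SREBP genes against normal had opposite signs, and their ratio within a library does not depend on scaling. The count of Srebf1 relative to Srebf2 was 1.32, 0.581 and 0.812 in the normal libraries. It was 8.27, 1.75 and 15.3 in the model, 3.23, 2.48 and 5.55 in arm D, and 3.80, 5.83 and 2.88 in arm G. Every high-fat library was above every normal one, with M.6 closest. The mean log2 ratio was 2.14 ± 0.96 in high-fat and −0.23 ± 0.59 in normal libraries (SD, n = 9 and 3), with an exact permutation p of 0.00455, the smallest possible. This ratio was chosen after the values had been seen. The ratio of Insig1 to Insig2 was also examined, at 1.02, 0.838 and 0.507 in normal libraries, and it overlapped the high-fat range of 0.153 to 0.797. Its exact permutation p was 0.0318, and 0.109 without N.1.

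**Figure D2:**
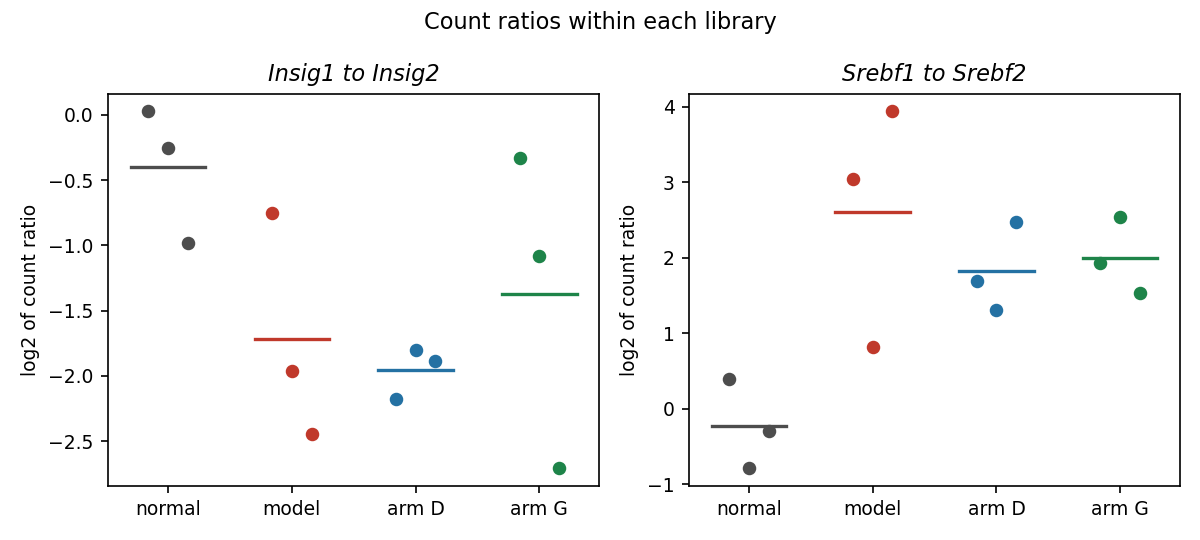
Log2 ratio of Insig1 to Insig2 counts (left) and of Srebf1 to Srebf2 counts (right) within each library, by group; points are libraries and lines are means of 3. The Srebf1 to Srebf2 ratios of the normal libraries lie between −0.78 and 0.40 and those of high-fat libraries between 0.81 and 3.94, while the Insig ratios overlap.

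Insig1 and Insig2 retain Scap in the endoplasmic reticulum. Insig1 is itself a target of SREBPs, and Insig2 has a liver transcript that insulin lowers. Insig1 was at 343, 410.2 and 193 CPM in normal libraries and at 101, 34.2 and 59.9 CPM in the model. It was at 64.7, 53.1 and 59.5 CPM in arm D and at 304, 58.6 and 40.9 CPM in arm G. In 8 of the 9 high-fat libraries Insig1 was below all normal ones, and G.1 was the exception, above N.3. The log2 fold change of the high-fat groups was −1.97 ± 0.48, and −2.46 without G.1. The adjusted p was 0.306 in edgeR, 0.0321 without G.1 and 0.0275 in DESeq2, over a range of 0.0275 to 0.9996 in 19 alternatives. The exact permutation test gave p = 0.00909. In the authors' deposited table of normal over model, Insig1 has a log2 fold change of 2.28 with an adjusted p of 0.00138, the only 1 of the 7 genes below 0.05 there. Over all genes 53 were below 0.05 in that table. For the model against normal, the fits made here gave Insig1 an adjusted p of 0.762 in edgeR and 0.0707 in DESeq2.

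Insig2 differed less. It was at 337, 489 and 380.5 CPM in normal libraries and at 170.0, 133 and 326 CPM in the model, so the model was lower without overlap. Scaled to the nuclear-coded total instead, M2.1 at 408 lay above N.1 at 368 in CPM, so the 2 sides then overlapped. In arm D it was at 293, 185 and 220 CPM and in arm G at 382, 124 and 267 CPM, where G.1 lay among the normal libraries. The log2 fold change of the high-fat groups was −0.79 ± 0.33 with an adjusted p of 0.749 in edgeR. The exact permutation p was 0.0364, and 0.145 without N.2. Scap, the escort that Insig proteins bind, was at 64.1 to 82.9 CPM in normal libraries and at 36.5, 32.6 and 70.6 CPM in the model. In arm D it was at 52.9, 81.1 and 55.6 CPM and in arm G at 77.7, 43.9 and 66.0 CPM. M2.1, D.4, G.1 and G.4 were within the normal range. The difference was −0.39 ± 0.26 in log2, with a 95% interval of −0.96 to 0.18 and an adjusted p of 0.791 in edgeR.

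Stard4, a soluble carrier that moves cholesterol between membranes and a target of SREBP-2, was the gene of the 7 with the smallest p. It was at 34.4, 36.4 and 20.1 CPM in N.1, N.2 and N.3. The model libraries had 10.05, 6.75 and 14.4 CPM, arm D had 7.95, 12.6 and 11.2 CPM, and arm G had 12.6, 7.49 and 9.01 CPM. Every high-fat library was below every normal one, and the 3 high-fat groups lay over each other. This also held with scaling to the nuclear-coded total, where the highest high-fat library was M2.1 at 18.0 and the lowest normal one N.3 at 22.0 CPM. Means were 30.3 ± 8.87 CPM in normal, 10.4 ± 3.85 in the model, 10.6 ± 2.37 in arm D and 9.71 ± 2.65 in arm G (SD, n = 3). The log2 fold change of the high-fat groups was −1.56 ± 0.26, a level 2.96 times lower, and edgeR gave an adjusted p of 0.0520. In 5 of 19 alternatives it passed the threshold, and its adjusted p ran from 0.000298 in DESeq2 to 0.52 without N.2. The exact permutation p was 0.00455, the smallest possible. The count behind the lowest value, in G.3, was 66, with an exact Poisson 95% interval of 51 to 84 that covers counting error only.

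Hepatocyte marker sums and mitochondrial shares also differed between libraries, and their part in these differences was not tested. Mitochondrial shares of M2.1, D.4, D.7, G.1 and G.4 were 4.90% to 7.88%, within the 3.85% to 11.2% of normal libraries. Hepatocyte marker sums of G.1 and G.4, 172500 and 173900 CPM, were within the normal range too, and those of the other high-fat libraries were below it. Without M.6 and G.3, the libraries of lowest hepatocyte marker sum, the log2 fold changes were −1.42 for Stard4, −0.88 for Srebf2 and −1.74 for Insig1. With the mitochondrial share as a covariate they were −1.26 for Stard4, with an adjusted p of 0.0365 in edgeR, and −1.57 for Insig1, with an adjusted p of 0.467. Under the same covariate Srebf2 was at −0.76 (adjusted p 0.287, edgeR). Insig2 moved to −0.51, with an unadjusted p of 0.0752, and Scap to −0.13. In normal libraries N.3 had the highest mitochondrial share, at 11.2%, and the lowest Srebf2, Insig1, Stard4 and Scap. The hepatocyte marker sum of N.3 was the highest of the 12 libraries, at 206500 CPM.

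**Figure D3:**
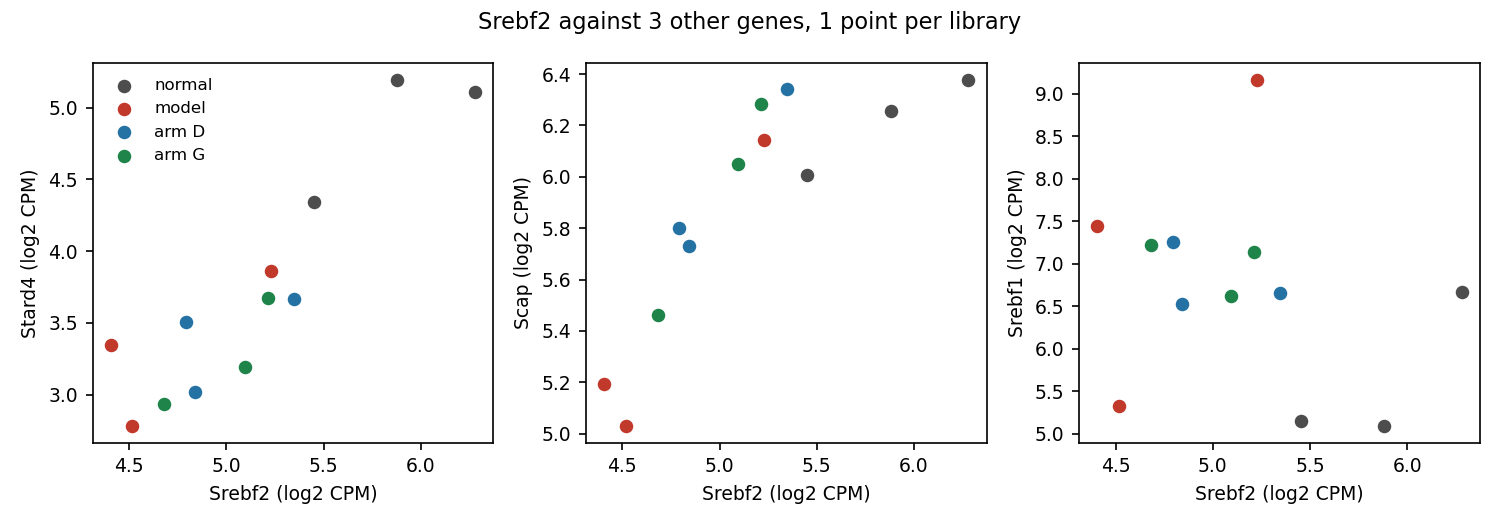
Log2 CPM of Srebf2 (x axis) against Stard4, Scap and Srebf1 (y axes), 1 point per library, coloured by group. Normal libraries hold the 3 highest values of both Srebf2 and Stard4, while Srebf1 is highest in the model library M2.1, whose Srebf2 is below all normal ones.

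For the model alone against normal the same 5 genes had an unadjusted p under 0.05, 4 of them lower, where 1.9% of all genes were, and Srebf1 higher, where 3.01% were. Srebf2, Insig1, Insig2 and Stard4 had every model library below every normal one, as did 5.29% of all genes. For Insig2 this did not hold with scaling to the nuclear-coded total. No member was without overlap on the higher side, where 5.25% of all genes were. Log2 fold changes were −1.15 ± 0.30 for Srebf2, −2.28 ± 0.67 for Insig1, −0.94 ± 0.43 for Insig2 and −1.54 ± 0.35 for Stard4. Their adjusted p lay between 0.461 for Stard4 and 0.866 for Insig2 in edgeR. In DESeq2 Stard4 passed in this comparison, with an adjusted p of 0.0220. Over all genes edgeR called 0% of the genes in this comparison, with 607 at an unadjusted p under 0.05, and DESeq2 called 38 and limma-voom 0.

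**Figure D4:**
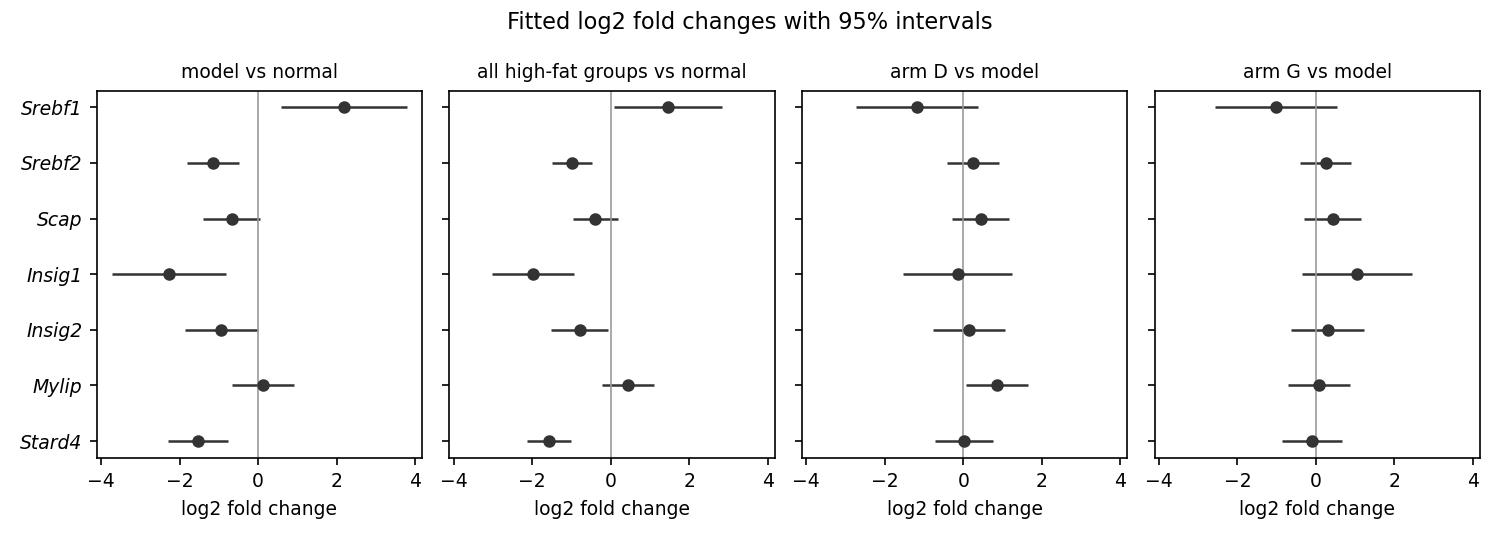
Fitted log2 fold changes (points) with 95% intervals (bars) of the 7 genes in 4 comparisons, from 1 edgeR fit of 12 libraries. Against normal, intervals of Srebf2, Insig1, Insig2 and Stard4 lie below 0 and that of Srebf1 above 0; against the model only that of Mylip in arm D excludes 0.

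The second question was how the didymin arms differed from untreated rats on the diet. Both comparisons use the same 3 model libraries. No member passed over all genes in either, and edgeR called 0% of all genes in both, with 776 genes at an unadjusted p under 0.05 for arm D and 287 for arm G. DESeq2 called 12 and 5, and limma-voom 0 in both. Stard4 had a log2 fold change of 0.02 ± 0.35 in arm D (95% interval −0.73 to 0.77) and −0.10 ± 0.35 in arm G (−0.85 to 0.65). For Srebf2 the values were 0.25 ± 0.30 (−0.40 to 0.90) and 0.25 ± 0.30 (−0.41 to 0.90). The values per library overlapped between each arm and the model for all 7 genes. Of all genes 6.71% were lower and 5.93% higher without overlap in arm D, and 2.09% and 2.61% in arm G. At an unadjusted p under 0.05, no member was lower in arm D, where 3.24% of genes were. In arm G none was lower or higher, where 1.13% and 1.2% of genes were.

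Srebf1 was lower in both arms than in the model, at −1.19 ± 0.71 for arm D and −1.02 ± 0.71 for arm G in log2, neither past the test. These values turned to 0.11 and 0.27 without M2.1, so 1 model library set their direction. Insig1 was at −0.14 ± 0.64 in arm D (95% interval −1.52 to 1.25) and at 1.05 ± 0.64 in arm G (−0.35 to 2.45). The arm G value rested on G.1 and was −0.39 without it. Scap was at 0.44 ± 0.33 and 0.43 ± 0.33, and Insig2 at 0.15 ± 0.42 and 0.30 ± 0.43, in arm D and arm G. Between the arms, at doses that cannot be matched to the letters, the log2 difference of arm G from arm D was 1.19 ± 0.65 for Insig1 and −0.79 ± 0.36 for Mylip. Adjusted p was 0.9993 or higher for all 7 genes in edgeR, which called 0% of all genes, with 423 at an unadjusted p under 0.05 and 5 called in DESeq2. No member had an unadjusted p under 0.05 between the arms, where 0.971% of genes were lower and 2.45% higher in arm G, and none was without overlap, where 3.35% and 4.08% were.

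Mylip encodes a ubiquitin ligase, induced by the liver X receptors, that marks lipoprotein receptors for breakdown. It was at 4.03, 4.09 and 4.996 CPM in normal libraries and at 3.16, 5.22 and 5.97 CPM in the model. Arm D had 4.90, 10.3 and 11.01 CPM and arm G had 4.47, 6.13 and 4.64 CPM. D.4 and D.7 were above all other libraries, while D.1 lay among the normal and model ones. Arm D differed from the model by 0.87 ± 0.36 in log2, with an unadjusted p of 0.0340 and an adjusted p of 0.786 in edgeR. Of all genes 3.04% were higher in this comparison at an unadjusted p under 0.05. In edgeR the unadjusted p of Mylip was 0.122 without M.5, 0.106 without D.4, 0.132 without D.7 and 0.143 with nuclear-coded scaling. It was 0.00574 without D.1 and 0.0376 with the mitochondrial covariate. The direction turned in 0 of 20 alternatives. The lowest count of Mylip was 39, in M.5, with an exact Poisson 95% interval of 27.7 to 53.3.

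Markers of Kupffer cells, the macrophages of the liver, were highest in the same 2 libraries as Mylip. Their summed level over 10 markers was 1596 CPM in D.4 and 1039 CPM in D.7, against 541 CPM in D.1. It was 546 to 733 CPM in normal libraries, 265 to 597 CPM in the model and 366 to 788 CPM in arm G. All 10 markers had a positive log2 fold change in arm D against the model (median 1.44), 9 of them at an unadjusted p under 0.05, and none passed over all genes. Among the other 10 libraries the highest Mylip value, 6.13 CPM in G.3, came with a marker sum of 366 CPM, near the low end. G.3 had 61.0% of its counts from mitochondrially coded genes, and its Mylip count was 54. Scaled to the nuclear-coded total, Mylip was at 11.1 CPM in G.3 and 12.6 CPM in D.4. Sinusoidal endothelial markers also moved with arm D. Their sum over the 9 tested was 439.6 to 510 CPM in arm D, above the 348 to 437 CPM of normal, 263 to 348.5 CPM of the model and 305 to 402.5 CPM of arm G. All 9 had a positive log2 fold change against the model (median 0.71), 5 of them at an unadjusted p under 0.05, and none passed over all genes. The part of either cell type in the Mylip values was not tested.

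**Figure D5:**
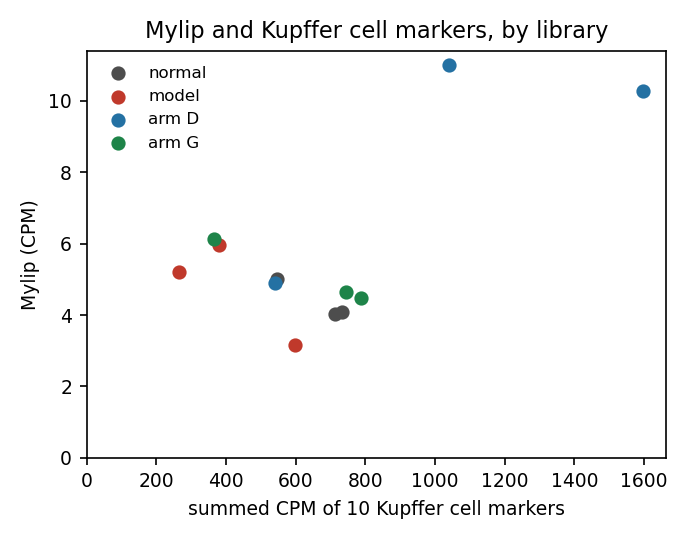
Mylip (CPM, y axis) against the summed CPM of 10 Kupffer cell markers (x axis), 1 point per library, coloured by group. D.4 and D.7 lie apart at 1596 and 1039 CPM of markers and 10.3 and 11.01 CPM of Mylip, and the other 10 libraries lie between 265 and 788 CPM of markers.

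Genes that SREBP-2 is known to activate were examined beside the regulators. All 21 genes of cholesterol synthesis had a negative log2 fold change in high-fat groups against normal, with a median of −1.50, where 47.9% of all genes were negative and their median was 0.02. In edgeR 5 of the 21 passed an adjusted p of 0.05, where 0.0890% of all genes did, and 20 had an unadjusted p under 0.05. Sqle, which makes squalene epoxide, fell by 3.14 ± 0.39 on the log2 scale (adjusted p 0.0195). Idi1, the isopentenyl diphosphate isomerase, fell by 2.62 ± 0.33 and Fdps, which makes farnesyl diphosphate, fell by 1.74 ± 0.24. Tm7sf2, a sterol reductase, fell by 2.79 ± 0.39, and Msmo1, a sterol demethylase, fell by 2.57 ± 0.37 (adjusted p 0.0195 to 0.0270 for these 4, edgeR). The number of genes called over the whole table was 11, 83 in DESeq2, 2 in limma-voom, and 0 without N.1, N.2 or D.1. It was 3 without M.5 or D.4, 5 without D.7 and 19 without M2.1. Mean log2 CPM over the 21 genes was 6.20, 5.83 and 5.29 in the normal libraries and 3.42 to 4.61 in the 9 high-fat ones, without overlap. Against the model the arms had 15 and 16 of 21 genes higher, with medians of 0.30 in arm D and 0.34 in arm G, and 0 called. Of all genes 46.7% were higher in arm D and 50% in arm G. At an unadjusted p under 0.05 in edgeR, 1 of the 21 was higher and 1 lower in arm D. In arm G 1 was higher and 0 lower. Tm7sf2 had the smallest p in both, at 1.53 ± 0.54 and 1.57 ± 0.54. Hmgcs1, which makes HMG-CoA, came next in arm D with the opposite sign, at −1.11 ± 0.42 and an unadjusted p of 0.0222 in edgeR.

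Enzymes of fatty acid and triglyceride synthesis are known targets of SREBP-1c. Of 15 tested, 11 were lower and 4 higher in high-fat groups than in normal, with a median of −0.84, and 0 were called. Of all genes 47.9% were lower. Their mean log2 CPM was 5.94, 5.59 and 4.61 in the normal libraries and 4.87, 4.04 and 6.23 in M.5, M.6 and M2.1. M2.1 was thus the highest of all 12 libraries and M.6 the lowest, and the model libraries stood in the same order as for Srebf1. Arm D ranged from 4.59 to 5.11 and arm G from 4.31 to 5.18, within the range of the model. Acss2, an acetyl-CoA synthetase, was at −1.28 ± 0.26 and Fads1, a fatty acid desaturase, at −2.00 ± 0.46. In the model alone the stearoyl-CoA desaturase Scd was at 3.22 ± 0.84 and Fads1 at −2.45 ± 0.64 against normal. Their adjusted p was 0.730 in edgeR. In this comparison 11 of 15 were lower, where 47.4% of all genes were, and 0 were called. The model libraries were far apart for Scd, with a mean of 904 ± 801 CPM, against 96.9 ± 25.1 CPM in normal (SD, n = 3). Against the model 10 were lower in arm D and 12 in arm G, with medians of −0.59 and −0.53, and 0 were called in either. Of all genes 53.3% were lower in arm D and 50% in arm G. Scd was at −2.64 ± 0.82 in arm G against the same uneven model group, with an adjusted p of 0.9997 in edgeR.

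Other proteins that act on SREBP transport, cleavage or degradation differed less. Of 26 tested, 21 were lower in high-fat groups than in normal, with a median of −0.25, and 0 were called. Of all genes 47.9% were lower. Lpin1, a phosphatidate phosphatase that also restrains SREBP in the nucleus, had the smallest p at −1.17 ± 0.41. The site-1 protease Mbtps1 was at −0.35 ± 0.19 in the model. Rnf145, a ubiquitin ligase that acts on Scap, was at 1.22 ± 0.33 in arm D against the model, with an unadjusted p of 0.00268 and an adjusted p of 0.783 in edgeR. The deacetylase Sirt1 was at −0.68 ± 0.28 in arm D and −0.77 ± 0.28 in arm G.

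Of 12 genes of the liver X receptor response, 7 were lower in high-fat groups than in normal, with a median of −0.12 and 0 called. That is near the 47.9% of all genes that were lower. Abcg8, part of the sterol exporter of bile, was at −1.92 ± 0.34 and Cyp7a1, the first enzyme of bile acid synthesis, at 1.89 ± 0.41. In arm D against the model 8 of 12 were higher, where 46.7% of all genes were. There Mlxipl, a carbohydrate-responsive factor, was at −1.49 ± 0.44 while the phospholipid transfer protein Pltp was at 1.57 ± 0.47. Of 16 genes of lipoprotein uptake and lysosomal cholesterol, 11 were lower in high-fat groups (median −0.21), and the lipoprotein receptor gene Lrp8 was at 2.89 ± 1.06, with 0 called. Of 14 sterol transfer proteins other than Stard4, 8 were lower in high-fat groups (median −0.10), where 47.9% of all genes were. In that comparison 0 were called or had an unadjusted p under 0.05. Osbp, an oxysterol-binding carrier, was at −0.46 ± 0.29 there.

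Genes whose log2 CPM followed members most closely over the 12 libraries are given as a description. All points share the library depth, the mitochondrial shares and the difference between normal and high-fat groups. Stard4 was followed by Acsf2 (Pearson r = 0.936), Klhdc10 (0.926) and Acss2 (0.919). Srebf2 was followed by Lrp2, Fads1 (0.920) and Klhdc10 (0.918). Srebf1 was followed by Uox, Mid1ip1 (0.905) and Veph1 (0.896). For Insig1 the highest r was with Frmd6 (0.889). For Scap it was with Icoslg (0.959) and for Mylip with Ptk2b (0.913).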

How the data were processed

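Liver RNA of 12 rat libraries was described by whole-number read counts per gene in 3 tables deposited by the authors, each setting a group beside the model. Per the submitters' processing notes DESeq2 was used and the build was mm9, a mouse build; no source used here names the aligner or counter. Columns were matched to groups by the letters N and M, and D and G to didymin without a dose. The deposited tables also hold the authors' log2 fold changes and their p-values, quoted for the members only where named so. Another 36 columns of per-sample values were not used. Model counts were the same in the 3 tables.

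Counts were joined over 16558 genes and tested with edgeR 4.0.16 (R 4.3.3): genes with low counts were removed by filterByExpr, leaving 12355, libraries were scaled by TMM, and 1 quasi-likelihood fit with 4 group means gave 5 comparisons with Benjamini-Hochberg adjustment at 0.05 over all genes. Log2 CPM used a prior count of 2. DESeq2 1.42.0, limma-voom (limma 3.58.1), no filter, other scalings, a mitochondrial covariate, fits of the compared groups alone and leaving out libraries were alternatives. The exact permutation test was two-sided on log2 CPM of 9 against 3 libraries. On simulated counts for 12355 genes, the comparison of high-fat groups with normal called 87 of 100 genes changed by 2 on the log2 scale and 100 of 100 changed by 4, with 10 false calls. For the model against normal these were 69 and 98 of 100, with 5 false calls. The changed genes had a mean above 5 CPM, and comparisons of the didymin arms were not simulated.

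Libraries of a group differed beyond sampling noise (chi-square per degree of freedom 22.4 to 893), so each counts as 1 sample. No source used here gives the strand setting of the counting, so reads of overlapping genes cannot be told apart. The members and lists were chosen with earlier results of these data known. The genes named were the 7 members, the genes of each pathway list that passed or else the 2 with the smallest p, and for likeness the 3 highest r; not all are printed, and some are not reported here. All 7 members match RefSeq rat symbols.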

Additional observations from a re-analysis of the deposited data

Results flagged for a closer look

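Insig1 in G.1 was at 304 CPM, while the other 5 didymin libraries lay between 40.9 and 64.7 CPM. Its gap to the nearest of them, divided by the range of the 6 libraries, was 0.910, above Dixon's critical value of 0.625. The share of counts from mitochondrially coded genes in G.3 was 61.0%, against 5.62% to 16.02% in the other didymin libraries, with a quotient of 0.812. Chance puts about 1 in 20 groups of like libraries past this limit for each quantity examined. Here the 7 genes and the mitochondrial share were examined, over libraries of both arms pooled. That rate therefore does not describe these flags as a set.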

How the results depend on the processing

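No paired analysis was possible because the numbers in the names of the count columns (such as M.5 or M2.1) are not the replicate numbers of the labels, so no column carries one. The number of genes past an adjusted p of 0.05 depended on the tool and the library set. DESeq2 called 38 genes for the model against normal, 83 for all high-fat groups against normal, 12 for arm D and 5 for arm G against the model, and 5 between the arms. Without a filter on low counts there were 3, 21 and 1 for the model against normal, the high-fat groups against normal and the arms. For the high-fat groups limma-voom called 2 and scaling to the nuclear-coded total, chosen after seeing the data, called 5. Without M.6 and G.3, 1 gene was called for the model. Leaving out 1 library gave 0 to 19 for the high-fat groups, 0 to 6 for the model and 0 to 1 between the arms.

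For the 7 genes, no direction turned in the high-fat comparison, and only that of Mylip turned for the model against normal (−0.069 to 0.35 on leaving out a library). Srebf1 in both arms against the model turned without M2.1, and Insig1 in arm G turned against the model and against arm D without G.1. Other reversals were these. Stard4 in arm D was −0.067 with nuclear-coded scaling, −0.23 with the mitochondrial covariate, −0.00047 with the compared groups alone and −0.18 without M.6 and G.3. Between arms, Srebf2 was 0.10, 0.16, 0.00086 and 0.12 under these, and 0.011 in limma-voom. Scap between arms was 0.068, 0.19 and 0.17 with nuclear-coded scaling, the covariate and without both libraries. With the covariate and without both libraries, Insig2 in arm D was −0.0053 and −0.070, and Stard4 between arms 0.11 and 0.015. In limma-voom Insig1 in arm D was 0.0014 and Insig2 between arms −0.0058. On leaving out a library, arm D against the model gave −0.44 to 0.33 for Insig1, −0.096 to 0.62 for Insig2, −1.70 to 0.11 for Srebf1 and −0.21 to 0.34 for Stard4. Arm G gave −0.39 to 1.52 for Insig1, −0.11 to 0.77 for Insig2, −0.15 to 0.27 for Mylip, −1.54 to 0.27 for Srebf1 and −0.34 to 0.22 for Stard4. The arms gave −0.25 to 1.61 for Insig1, −0.25 to 0.47 for Insig2, −0.20 to 0.21 for Scap, −0.12 to 0.20 for Srebf2 and −0.36 to 0.023 for Stard4. The cause was not tested. With 3 libraries a group, the 95% intervals of the arms against the model include 0 for all members except Mylip in arm D.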
